A study of Mus musculus with 18 samples.

Results

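N6-methyladenosine (m6A) was mapped in mouse 3T3-L1 cells at day 10 and at day 0 of adipogenesis, and the day 10 peak list was set against the day 0 peak list. 3T3-L1 is an established line of embryonic fibroblasts that turns into fat cells after hormonal induction. Each day was represented by 1 immunoprecipitated (IP) sample and 1 input sample, both from unmodified cells of the line. The labels name every stage after the pre-adipocyte line and give the day alone, with no agent, dose or culture. Of the 18 samples and 9 peak lists of the series, 4 samples and 2 lists belong to this comparison. The lists of days -2, 2 and 5 and of the 4 siRNA samples (siCtrl and siFTO, 2 replicates each, the siFTO ones aimed at the demethylase Fto) were used to look up where the regions of days 10 and 0 recur. The 2 lists hold 81992 of the 338246 peaks of the series. Per the labels' protocols, poly(A)-selected and rRNA-depleted RNA was fragmented and bound by an m6A antibody.

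m6A is the most common internal mark of messenger RNA. A nuclear complex built on Mettl3, Mettl14 and Wtap writes it, the demethylases Fto and Alkbh5 remove it, and YTH-domain proteins bind it and steer splicing, translation and decay. Its sites favour the consensus GGAC, most often followed by T in DNA letters, and cluster around stop codons and in long exons. In fat cell formation C/EBPβ and C/EBPδ act early, PPARγ and C/EBPα drive the terminal program, and enzymes of lipid storage and breakdown are then made in large amounts.

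The consensus can be read in the 5′ ends of transcripts that lay under a peak. The sequences below are 30 bases of the first 50 transcribed bases in RefSeq (build GRCm38.p6), 5′ to 3′ on the gene's strand, and the capitals mark 1 GGACT in each (Tmem129 holds another, left in lower case). They were picked from the windows that hold GGACT, by highest fold in each class, so they do not show how common the motif is. Peaks of the named lists covered all 50 bases. In the single-day sets the other list had no peak base there. The first set was covered in the day 10 list only.
Tmem129 (chr5:33657932-33657961, minus strand): ccgccagtagccGGACTtggactccgtttc
Plekhf1 (chr7:38227959-38227988, minus strand): ggcgccagttcgGGACTggctgtgcggacg
Bnip2 (chr9:69989517-69989546, plus strand): ctgcagccgcccGGACTgcaactaagatcg
The second was covered in the day 0 list only.
Sesn2 (chr4:132510407-132510436, minus strand): cttcccgagcagcgctggccactgcGGACT
The last set was covered in both lists.
Six5 (chr7:19094548-19094577, plus strand): gggcggcgaggaGGACTgggcggaggaggg
Sap30l (chr11:57801657-57801686, plus strand): gcccaggggctgccgcggGGACTcggggcg

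The share of windows with the motif had overlapping intervals in the single-day classes. GGACT, searched on the transcribed strand alone, stood in 6 of 88 windows covered in the day 10 list only (6.82%, exact Clopper-Pearson 95% interval 2.54 to 14.3) and in 1 of 53 covered in the day 0 list only (1.89%, 0.0478 to 10.1). It stood in 4.26% of the 727 windows covered in both lists and in 5.76% of all 32817 windows of the same length. Mean GC content was 66.7% in the windows of day 10 only, against 74.0% in those of day 0 only, 73.9% in those of both lists and 62.6% in the 6229 windows of listed genes with no peak base on either day. These intervals and all others given here cover counting error only. A match is a run of letters and not a mapped site.

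The day 10 list held 44529 peaks on 9399 genes, against 37463 peaks on 8713 genes in the day 0 list. A gene had 4.74 peaks on average at day 10 and 4.30 at day 0, and a median of 425 covered bases at day 10 against 375 at day 0. Covered bases are the length of a gene's peaks joined together. Peaks were 75 to 200 bases wide in both lists, and 11896 of them had the same start and end on both days (26.7% of day 10 peaks and 31.8% of day 0 peaks). Each peak carries a fold, the authors' enrichment, which is used here only to rank or describe peaks within a list. The lists give no RNA level, so more transcript, more cells that carry it and more m6A per transcript cannot be told apart. With 1 list a day there is no replicate spread and no test.

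The stage labels were checked on cell type markers. Of 10 adipocyte markers, 8 had a peak at day 10 and 3 at day 0 (Lipe, Cebpa and Pparg), with 9241 summed covered bases at day 10 against 2066 at day 0. Adipoq, Fabp4, Plin1, Cidec and Retn had none at day 0, and Lep and Slc2a4 had none on either day. Of 10 preadipocyte or fibroblast markers, 7 had a peak at day 10 and 8 at day 0, with 11550 summed bases at day 10 against 13850 at day 0. Fn1 was the marker at 0 at day 10. Of the macrophage markers Cd14 alone had a peak (325 bases at day 10, 300 at day 0), no endothelial marker had one, and of the muscle markers Des alone did, with 350 bases at day 10 against 175 at day 0.

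A gene with no peak on one day was more often a day 10 gene. Of 9802 genes in either list, 1089 (11.1%) were held by the day 10 list only and 403 (4.11%) by the day 0 list only, and 8310 were in both. Most of these calls were small. The genes of day 10 only had a median of 125 covered bases and 65.2% of them had 1 peak, and the genes of day 0 only had a median of 100 bases and 83.1% had 1 peak. With 200 or more covered bases required, 318 genes were of day 10 only and 61 of day 0 only. With folds of 2 or more required in both lists, 1135 genes were of day 10 only and 440 of day 0 only. The excess at day 10 was almost gone in 1 setting, equal list length. With the day 10 list cut to its 37463 peaks of highest fold, the length of the day 0 list, 785 genes were of day 10 only and 778 of day 0 only. That cut left out 7066 day 10 peaks with folds under 2.73, while the day 0 list kept peaks down to a fold of 0.84. It took no day 0 peak, so it could only lower the day 10 count and raise the day 0 count.

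The genes of day 10 only with the most covered bases included central genes of the fat cell. Plin1, which coats the lipid droplet, had 0, 1800, 2575 and 2150 covered bases on days 0, 2, 5 and 10. Adipoq, the hormone adiponectin, had 0, 400, 950 and 1225. Adrb3, the β3-adrenergic receptor that starts lipolysis, had 0, 0, 125 and 1575. Plin1 thus had most of its cover by day 2, Adipoq was highest at day 10, and Adrb3 was covered almost wholly at day 10.

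The other leading genes of day 10 only were of varied kinds. Myh11, the smooth muscle myosin heavy chain, had 0, 0, 650 and 1600 covered bases on days 0, 2, 5 and 10, all of the day 10 bases in coding sequence. Cdh23, a cadherin of the inner ear tip link, had 0, 125, 1025 and 1150, all of the day 10 bases intronic. Fam107a had 1250 bases at day 10, Fam83a 1150, Card14, a scaffold of NF-κB signalling, 1025, Pdzd2 975 and the secreted glycoprotein Lrg1 975, all with 0 at day 0. All 10 of these genes had a peak on day 5 as well and 8 of 10 had one on day 2, and 2 of 10 had one in a siCtrl list (Cdh23 and Lrg1). All 10 were still called higher with the lists at equal length, and 6 of 10 with day 2 in place of day 0. Over all genes called higher these shares were 64.3% and 41.9%. The 10 were picked for large cover, which favours keeping a call.

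The genes of day 0 only were led by Igfbp4, which binds insulin-like growth factors. It had 725, 750, 350 and 0 covered bases on days 0, 2, 5 and 10, and one 3′ UTR peak at chr11:99053251-99053375 (mm10) carried a fold of 139.21 in the day 0 list. Shank1, a scaffold of the synapse, had 700, 0, 100 and 0 bases. Bach2, a transcriptional repressor, had 525, 300, 100 and 0, and Slc8a1, the sodium-calcium exchanger, had 525, 0, 75 and 0. Adamts14, a procollagen protease, had 500, 375, 125 and 0, and Npr1, the receptor of atrial natriuretic peptide, had 475, 450, 275 and 0. Adam19, a membrane metalloprotease, was highest between the end points, with 425, 1475, 350 and 0. The other genes by this rule were Garem2 (450 at day 0), the Ras GTPase-activating protein gene Rasal2 (400) and the retrotransposon-derived imprinted gene Peg10 (400).

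Unlike the leading genes of day 10 only, 9 of these 10 had peaks in both siCtrl lists, Rasal2 being the exception. The stage of the siCtrl cells is not given in the labels. Over all genes the lookup did not separate the classes. A siCtrl peak was found for 45.0% and 52.5% of the genes of day 10 only (replicates 1 and 2) and for 45.2% and 46.7% of the genes of day 0 only. Day 5 held 63.0% of the genes of day 10 only and 32.3% of the genes of day 0 only. No peak on day 2 or day 5 was found for 217 of the 403 genes of day 0 only. The day -2 list held 51.9% of the genes of day 10 only and 54.8% of those of day 0 only. In the day -2 list a gene of day 10 only thus often had a peak. That list stands apart from the other day lists, with 26485 peaks against 37463 at day 0. Of its peaks 7.26% began where another peak of the gene ended, against 25.3% at day 0.

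Among genes with a peak on both days, coverage at day 10 was mostly a little larger. Over 7304 genes with 200 or more covered bases in at least 1 list, the median log2 ratio of covered bases, day 10 over day 0, was 0.22 (5th percentile -0.63, 95th percentile 1.43). The ratio was above 1 for 5069 genes, below 1 for 1689 and equal for 546. Coverage was 2-fold or more at day 10 for 936 genes (12.8%) and 2-fold or less for 163 (2.23%). With the lists at equal length these counts were 582 and 395.

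**Figure D1:**
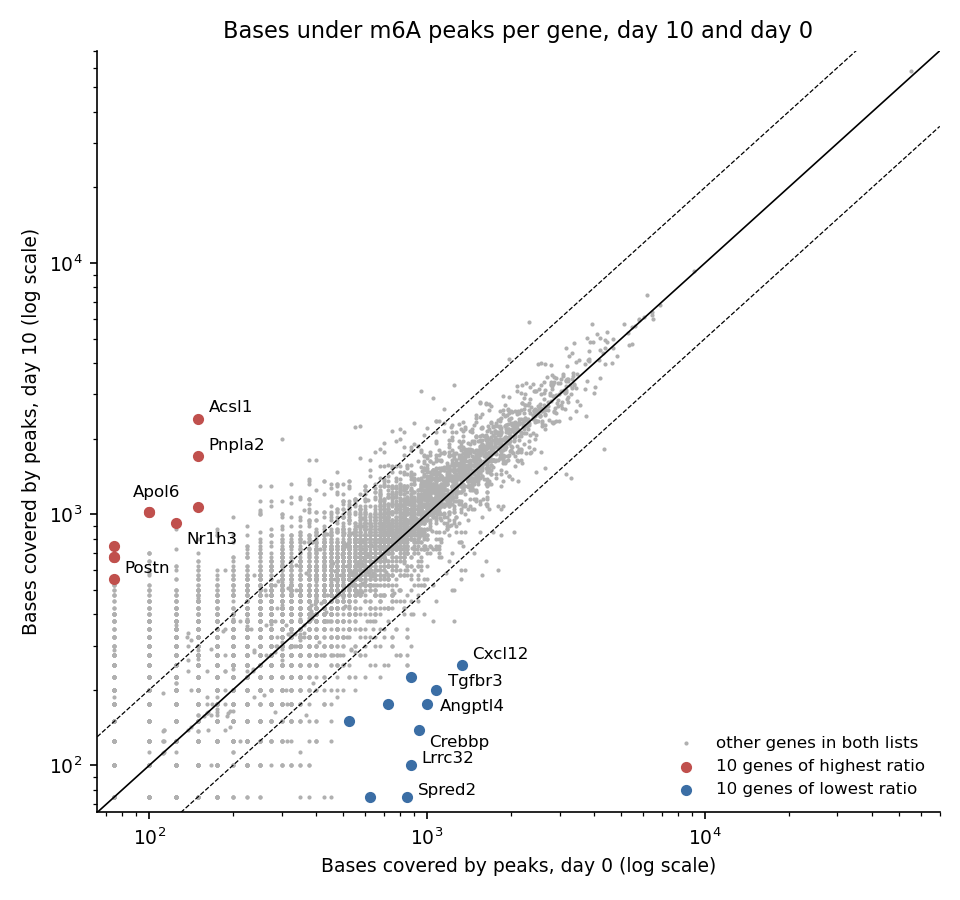
Bases covered by m6A peaks per gene at day 10 (vertical axis, log scale) against day 0 (horizontal axis, log scale), for genes with a peak on both days, where each point is a gene and the 2 lists are single libraries. The solid line marks equal coverage and the dashed lines a 2-fold difference, and the named genes of highest ratio (red, such as Acsl1 with 2400 bases at day 10 and 150 at day 0) and of lowest ratio (blue, such as Spred2 with 75 and 850) lie well outside them.

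The 10 highest ratios, among genes with 500 or more covered bases on at least 1 day, included those of 4 genes of lipid metabolism. Acsl1, which activates long-chain fatty acids by joining them to coenzyme A, had 2400 covered bases in 18 peaks at day 10 against 150 in 1 peak at day 0, a log2 ratio of 4.0. Its highest day 10 fold, 74.7, was on an intronic peak at chr8:46482314-46482500, and 925 of its day 10 bases were intronic. Pnpla2, the triglyceride lipase that opens lipolysis, had 1700 bases at day 10 against 150 at day 0 (log2 ratio 3.50), of which 1183 at day 10 lay in the 3′ UTR. Nr1h3, the oxysterol receptor LXRα, had 925 bases at day 10 and 125 at day 0 (log2 ratio 2.89). Abhd15, a protein that adipocytes need for insulin to restrain lipolysis, had 1069 at day 10 and 150 at day 0 (log2 ratio 2.83).

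The remaining genes of highest ratio were Apol6 with 1025 bases at day 10 and 100 at day 0, Coq8a, which serves coenzyme Q synthesis, with the same pair of values, the cell polarity gene Llgl2 with 675 and 75, the noncoding RNAs Neat1 with 750 and 75 and Irx3os with 675 and 75, and the matrix protein gene Postn with 550 and 75. For Acsl1, Pnpla2 and Nr1h3 coverage was larger still on day 5, at 3675, 2050 and 1350 bases. Postn and Neat1 did not follow that course. Postn had 75, 0, 0 and 550 bases on days 0, 2, 5 and 10, and Neat1 had 75, 250, 75 and 750. Both had 0 day 10 bases and no call with the lists at equal length, and the other 8 genes kept theirs. Over all genes called higher 64.3% did, and these 10 were picked for high ratios.

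The 10 lowest ratios, under the same rule, belonged to genes of varied function. Spred2, an inhibitor of Ras to ERK signalling, had 75 bases at day 10 against 850 at day 0, a log2 ratio of -3.50. Its day 10 base cover was 1 peak in the 5′ UTR, where its 7 day 0 peaks also took in coding sequence and 3′ UTR. Lrrc32, which holds latent TGF-β at the cell surface, had 100 at day 10 and 875 at day 0 (log2 ratio -3.13), and the tetraspanin gene Tspan5 had 75 and 625 (-3.06). Angptl4, a secreted inhibitor of lipoprotein lipase, had 175 at day 10 and 1000 at day 0 (-2.51). Tgfbr3, the TGF-β co-receptor betaglycan, had 200 and 1075 (-2.43), the chemokine gene Cxcl12 had 250 and 1333 (-2.41) and the growth factor gene Pdgfb had 175 and 725 (-2.05). Nufip2 and the cyclic AMP phosphodiesterase gene Pde4b completed the rule, with log2 ratios of -1.96 and -1.81. With peaks at or above the median fold, and with day 5 in place of day 10, 7 of these 10 genes were still called lower. Over all genes called lower the shares were 55.8% and 56.2%, and these 10 were picked for low ratios.

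The low value of Crebbp was a feature of day 10 alone. Crebbp, the CBP histone acetyltransferase, had 934, 900, 2175 and 138 covered bases on days 0, 2, 5 and 10, a log2 ratio of -2.76 between day 10 and day 0. Its day 10 peak, 138 bases of the 5′ UTR with a fold of 56.5, overlapped a day 0 peak of fold 58.8, so the 5′ end kept its peak while the 5 coding peaks of day 0 had none at day 10. The siCtrl lists held 1550 and 1450 bases of it.

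**Figure D2:**
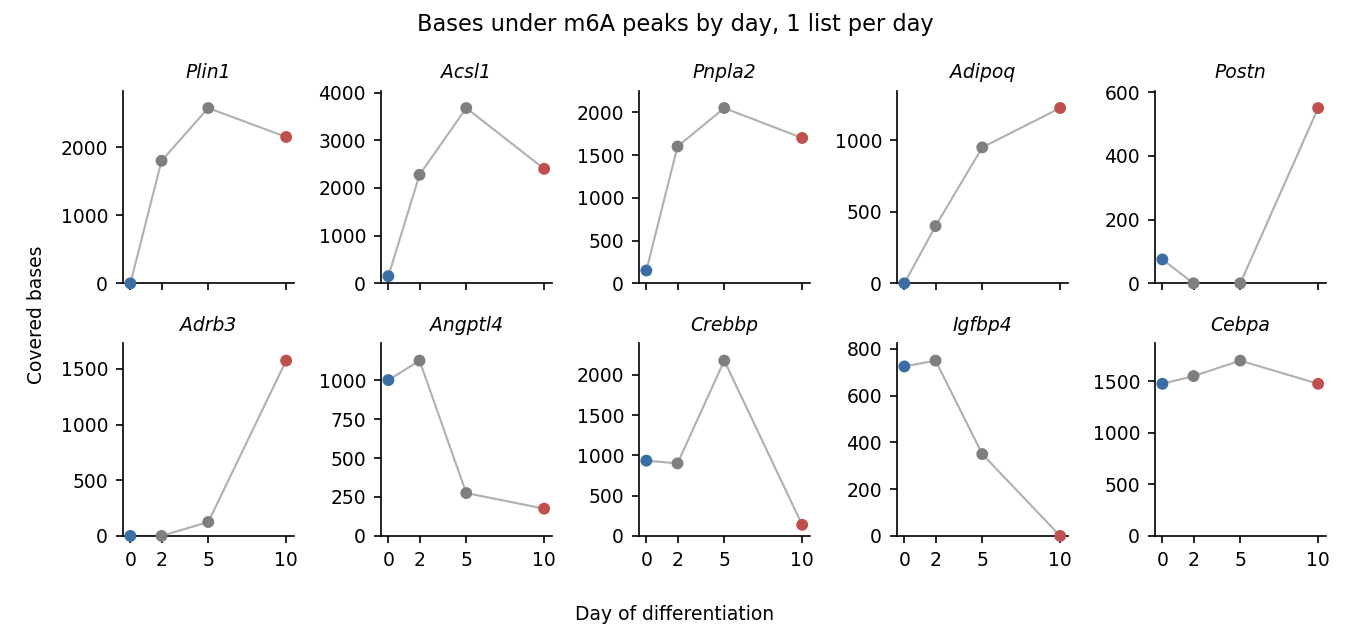
Bases covered by m6A peaks (vertical axes, scaled per gene from 0) by day of differentiation (horizontal axis, days 0, 2, 5 and 10) for 10 genes, 1 list a day, with day 10 in red, day 0 in blue and the days between in grey. Acsl1, Pnpla2 and Plin1 were highest on day 5, Adipoq, Adrb3 and Postn were highest at day 10, and Crebbp reached 2175 bases on day 5 before its 138 bases at day 10.

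Gene groups were read with 1 rule. A gene with 200 or more covered bases on at least 1 day was called higher at day 10 where its coverage was 2-fold or more (or was 0 at day 0), and lower for the converse. Of 7683 such genes 1254 (16.3%) were higher and 224 (2.92%) lower, which is the level against which each list is read. Across 15 lists, 53 calls were higher and 8 lower. At equal list length they were 32 and 29. That cut removes day 10 peaks only, so it can add lower calls but no higher ones. Over all genes with a peak on both days, the 2-fold counts went to 582 and 395. The 16.3% and 2.92% are thus not the level for list counts at equal length. Of the 1254 genes called higher, 806 (64.3%) kept that call at equal length. The share of all genes called lower there was not counted, so lower counts of a list have no level beside them.

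Both lists of lipid storage genes had larger shares of higher calls than all genes. Of the fatty acid uptake and triglyceride synthesis list 8 of 13 were higher and 0 lower, with a median log2 ratio of 1.12 over the 10 members with a peak on both days, beside 0.22 over all such genes. Slc27a1, a fatty acid transporter, had 3275 covered bases at day 10 and 1250 at day 0. Fasn, fatty acid synthase, had 2225 and 550, and Pcx, pyruvate carboxylase, had 2300 and 900. Fabp4, the fatty acid carrier of the adipocyte, had 700 at day 10 and 0 at day 0, of which 488 were intronic. Lpl, lipoprotein lipase, went uncalled with 275 at day 10 against 400 at day 0, and Acaca, the committed enzyme of fatty acid synthesis, had 350 against 525.

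Of the lipid droplet and lipolysis list 5 of 9 were higher and 0 lower (median log2 ratio 0.89 over 7). Lipe, the hormone-sensitive lipase, had 2000 bases at day 10 and 300 at day 0, Abhd5, the coactivator of Pnpla2, had 425 and 175, and Cidec, which helps droplets fuse, had 400 and 0. Plin4 was already well covered, with 3550 at day 10 and 3075 at day 0. Both lists had their largest summed coverage on day 5. The fatty acid list summed to 5350, 12227, 21016 and 15050 bases on days 0, 2, 5 and 10, and the droplet list to 5225, 11325, 17000 and 12375. With day 2 in place of day 0 the droplet list had 0 members higher and 2 lower, so its difference between the end points was already present by day 2. With the lists at equal length the droplet list kept 4 higher and 0 lower, and the fatty acid list had 4 higher and 3 lower, Fasn at 1000 against 550 and Pcx at 1125 against 900 being among the calls lost.

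Mitochondrial genes showed the same direction in the full lists. Of the oxidative phosphorylation and citric acid cycle list 9 of 16 were higher and 0 lower (median log2 ratio 0.91 over 14). Uqcrc1, a core subunit of complex III, had 650 bases at day 10 and 100 at day 0, and the coactivator gene Ppargc1b had 875 and 175. Esrra, the nuclear receptor ERRα, had 1425 and 625. At equal length 2 of the list were higher and 1 lower, so most of these calls rested on day 10 peaks of fold under 2.73.

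Hormone and insulin genes went both ways. In the adipokine and insulin signalling list 7 of 17 were higher and 2 lower (median log2 ratio 0.09 over 14). Cfd, the adipsin gene, had 975 covered bases at day 10 and 0 at day 0, and Retn, the resistin gene, had 750 and 0. Tbc1d4, which restrains glucose transporter movement until insulin acts, had 1042 and 250. Its paralogue Tbc1d1 was lower, with 325 at day 10 against 750 at day 0, as was Angptl4. The insulin receptor substrates Irs1 (2250 and 2600) and Irs2 (2884 and 3192) went uncalled.

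The sterol list had 3 of 9 higher and 0 lower (median log2 ratio 0.59 over 7), and 6 members in all had a peak at day 10 only. Mvk, mevalonate kinase, had 675 bases at day 10 and 200 at day 0, and Dhcr7, a late enzyme of cholesterol synthesis, had 200 and 0. The master factor gene Srebf2 had 2150 at day 10 against 1425 at day 0, under 2-fold. Unlike the lipid storage lists, this one was not at its peak on day 5, with sums of 4400, 3450, 4275 and 6625 bases on days 0, 2, 5 and 10.

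Most transcription factors that drive fat cell formation differed less than 2-fold in covered bases between the days. Of the adipogenic list 4 of 20 were higher and 2 lower (median log2 ratio 0.23 over 19, against 0.22 for all genes). Cebpa had 1475 bases on each day, in 8 peaks with the same starts and ends, and Cebpb had 1225 on each day. Cebpd had 1025 at day 10 and 975 at day 0. Pparg had 541 at day 10 and 291 at day 0 (log2 ratio 0.89), with the same 5′ UTR peak on both days at chr6:115361185-115361325 and an intronic peak of 75 bases at day 10 that carried its highest fold, 24.9. Srebf1, which drives lipogenic genes, was higher at 1650 against 400, as were Nr1h3, Klf5 (825 and 275) and Klf15 (250 and 0). Ebf1 and Nfia, factors of early commitment, were lower at day 10. Ebf1 had 550, 400, 400 and 225 bases on days 0, 2, 5 and 10, and Nfia had 250, 175, 575 and 75. Nfia was thus above its day 0 value on day 5. With day 5 in place of day 10 the list had 7 higher and 0 lower.

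Inhibitors of adipogenesis had 1 of 19 higher and 1 lower (median log2 ratio 0.01 over 18). Dlk1, the preadipocyte protein Pref-1, had 2275 covered bases at day 10 and 2025 at day 0, and the strongest peak of the gene in either list was the intronic one that began at chr12:109453251. Runx1t1, whose exon choice has been tied to Fto in this cell line, had 450 and 675. Trib3, a pseudokinase that binds Akt, had 0 at day 10 and 300 at day 0, and Gata3 had 325 and 625. Gata2 had 1050 at day 10 and 1400 at day 0.

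Genes of the m6A machinery were near the level of all genes, with 4 of 18 higher (22.2%, beside 16.3%) and 0 lower. Their median log2 ratio was 0.10 over 16, beside 0.22 over all genes. Mettl3, the catalytic subunit, had 250 bases at day 10 and 100 at day 0, and Rbm15 had 625 and 275. Virma had 250 and 0 and the reader gene Ythdc2 200 and 0. In the day -2 list, which stands apart from the others, Virma had 475 and Ythdc2 125. Mettl14 had 300 and 175, Wtap 875 and 700, Fto 650 and 550 and Alkbh5 1825 and 1725, none at 2-fold. At equal list length 2 were higher and 4 lower, with Mettl3 at 150 against 100 and Virma at 150 against 0, both under 200 bases, and Rbm15 still higher at 625 against 275.

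Matrix and surface genes held long stretches of peaks on both days. Of the extracellular matrix list 1 of 21 was higher (Postn) and 1 lower (Fn1, with 0 bases at day 10 and 375 at day 0), with 43250 summed bases at day 10 and 43125 at day 0. Col6a3 had 5325 at day 10 and 4450 at day 0, Col3a1 had 1075 and 1800, and Thbs1, the matricellular protein thrombospondin 1, had 1475 and 2475. At equal length, where only day 10 peaks are cut, 0 were higher and 9 lower, Thbs1 among them with 475 against 2475. With no share over all genes at that setting, the 9 cannot be read as particular to the matrix list. At or above the median fold 1 was higher and 4 lower. Of the preadipocyte and mesenchymal surface list 1 of 9 was higher, Mcam with 550 at day 10 and 0 at day 0, and 0 lower, and this became 1 higher and 2 lower at equal length.

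Among the other lists, cell cycle and DNA replication genes had 4 of 20 higher and 1 lower. The replication helicase gene Mcm5 had 400 bases at day 10 and 0 at day 0, and Mki67, the proliferation marker, had 700, 1025, 2950 and 1125 on days 0, 2, 5 and 10. Cytosolic ribosomal protein genes had 4 of 21 higher and 0 lower, and 0 of either at equal length. Rpl4 had 650 at day 10 and 200 at day 0, though pseudogene copies make read placement on these genes uncertain. SR proteins and splicing factors had 1 of 25 higher and 0 lower, and immediate early and stress genes 1 of 23 higher (Btg2, 1000 and 500) and 0 lower, which became 0 higher and 2 lower at equal length. Wnt, BMP and TGF-beta genes had 0 of 24 higher and 1 lower, the tumour suppressor Apc with 350 at day 10 and 775 at day 0.

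**Figure D3:**
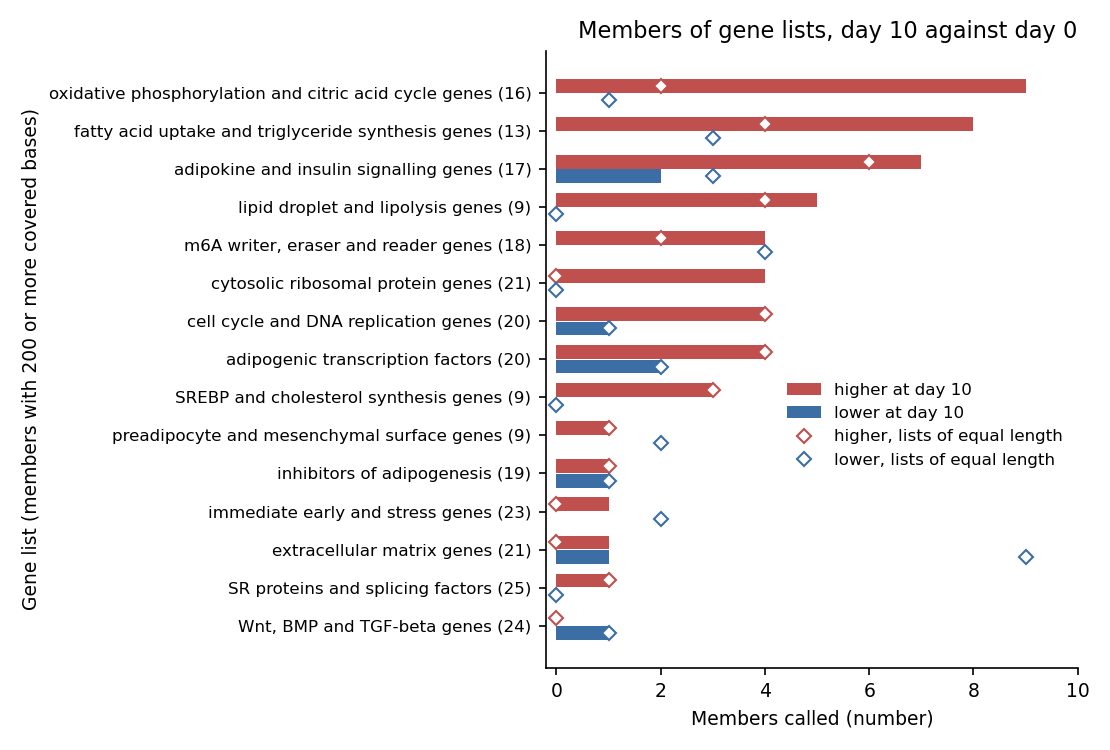
Number of members called higher (red bars) and lower (blue bars) at day 10 against day 0 in each of 15 gene lists, with the number of members with 200 or more covered bases in brackets; diamonds give the same counts with the day 10 list cut to the length of the day 0 list. The longest red bars are those of the oxidative phosphorylation (9 of 16) and fatty acid (8 of 13) lists. Next come the adipokine and insulin (7 of 17) and lipid droplet (5 of 9) lists. The matrix list goes to 9 lower at equal length, a cut that removes day 10 peaks only. The share of all genes called lower at that setting was not counted.

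The transcript parts of the peaks differed little between the lists. Coding sequence took 63.2% of day 10 peaks (95% interval 62.7 to 63.6) and 60.5% of day 0 peaks (60.0 to 61.0), a difference of 2.66 points. The 5′ UTR took 12.5% at day 10 and 14.0% at day 0 (-1.55 points), introns took 13.1% and 14.5% (-1.41 points) and the 3′ UTR took 11.3% and 11.0% (0.292 points). With the lists at equal length the 5′ UTR difference was -0.0854 points, the intron difference -0.0614, and the 3′ UTR difference -1.12, of the other sign. Parts are as deposited, and the coding label also sits on noncoding genes such as Neat1 and Irx3os.

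Merging peaks of both lists that shared a base gave 39823 regions, of which 27565 held peaks of both days. The day 10 list alone held 9168 (23.0%) and the day 0 list alone 3090 (7.76%). These counts turned to 5805 and 6644 with the lists at equal length, a cut that takes day 10 peaks only. With folds of 2 or more in both lists they were 9472 and 3045. Single-day regions were short and mostly lay on genes that had peaks elsewhere on the other day. That held for 80.8% of the day 10 regions and 83.8% of the day 0 regions. Their median length was 100 bases in both classes, against 150 for shared regions.

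In the full lists the part of the transcript set the 2 single-day classes apart. At equal list length the coding contrast was smaller and the intronic contrast was of the other sign. Coding sequence took 67.4% of day 10 regions (95% interval 66.5 to 68.4) and 44.8% of day 0 regions (43.1 to 46.6). Introns took 14.6% of day 10 regions (13.9 to 15.4) and 31.6% of day 0 regions (30.0 to 33.3), and the 5′ UTR 6.34% and 11.9%. The 3′ UTR took 11.6% of each. The intronic shares were 18.1% and 33.6% among peaks at or above each list's median fold, but 19.6% and 17.9% with the lists at equal length. Coding regions numbered 3841 of 6209 (day 10) and 1218 of 2984 (day 0) in the first of these settings. At equal length they numbered 3702 of 5805 and 3775 of 6644, so the coding contrast was smaller. This breakdown of the single-day regions by part was checked against other settings only after the data were seen. The positions that follow were read in the full lists only. Intronic regions of day 10 lay less often near the start of the gene, with 21.0% in the first 10% of the RefSeq gene (18.7 to 23.6), against 34.3% of the intronic regions of day 0 (31.2 to 37.5) and 37.7% of those of both days.

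**Figure D4:**
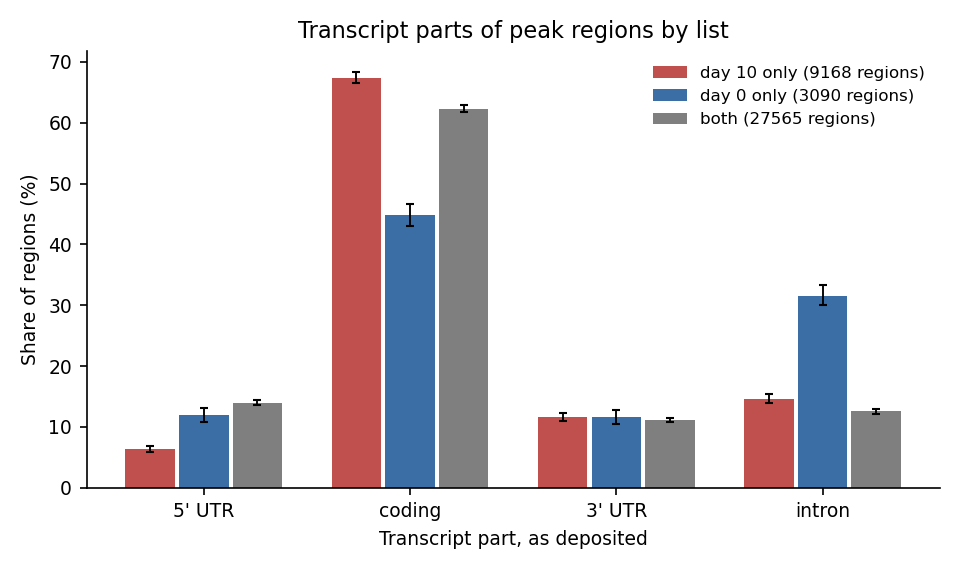
Share of regions in each transcript part (percent, vertical axis from 0) for 9168 regions held by the day 10 list only (red), 3090 held by the day 0 list only (blue) and 27565 held by both (grey), with exact 95% binomial intervals that cover counting error only. Day 10 regions are 67.4% coding and 14.6% intronic, and day 0 regions 44.8% coding and 31.6% intronic. At equal list length, not drawn, the intronic shares were 19.6% and 17.9%.

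The days between placed the single-day regions along the course. Of the regions of day 10 only, 29.4% lay under a peak on both day 2 and day 5, 31.1% on day 5 and not day 2, 10.5% on day 2 and not day 5, and 29.0% on neither. Of the regions of day 0 only, 44.6% lay under a peak on neither day, 21.9% on both, 19.7% on day 2 and not day 5 and 13.8% on day 5 and not day 2. Regions of both days were under a peak on both days between in 87.2% of cases. Day -2 peaks lay over 22.3% of the regions of day 10 only, 17.2% of those of day 0 only and 41.5% of those of both.

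In the siCtrl lists, replicates 1 and 2, peaks lay over 34.2% and 39.7% of the regions of day 10 only, over 30.1% and 30.5% of those of day 0 only and over 75.7% and 75.1% of those of both days. For coding regions the shares were 34.4% and 40.4% for day 10 only and 37.3% and 37.1% for day 0 only. In these full lists there was no single order across the replicates. At or above the median fold the shares were 68.2% and 69.4% for day 10 only against 60.0% and 56.2% for day 0 only. At equal length they were 34.4% and 40.5% against 51.0% and 50.8%, so the order turned with the peaks kept. Day 5 peaks covered 62.0% of the intronic regions of day 10 only and 25.4% of those of day 0 only.

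**Figure D5:**
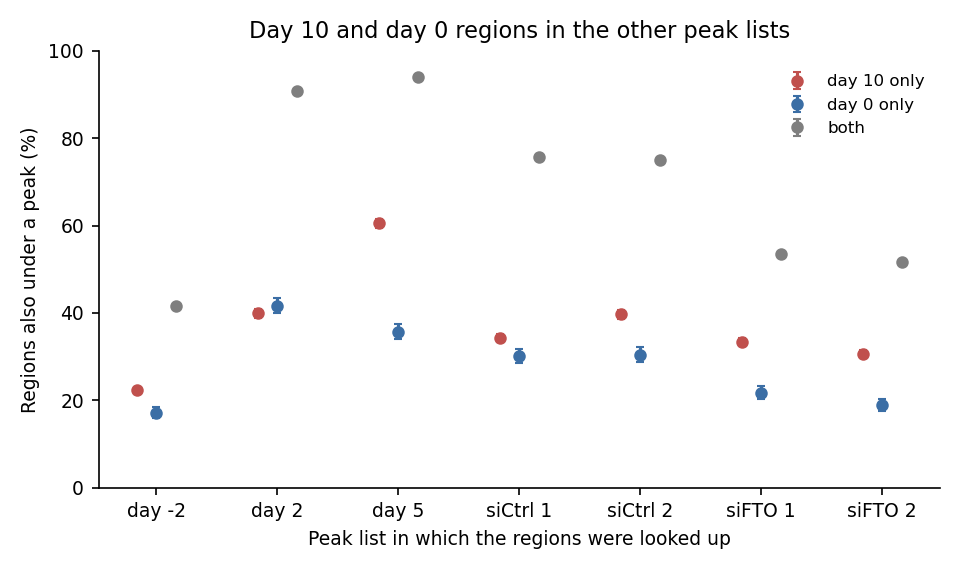
Share of regions that also lie under a peak of another list (percent, vertical axis), for regions of day 10 only (red), day 0 only (blue) and both (grey), by list (horizontal axis: days -2, 2 and 5 and the siCtrl and siFTO replicates), with exact 95% intervals that cover counting error only. The red and blue points are close on day 2 (39.9% and 41.7%) and apart on day 5 (60.5% and 35.7%).

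Peaks also touched microRNA hairpins, 72 of the 1005 in RefSeq at day 10 and 60 at day 0. A hairpin was counted where it shared 1 base or more with a peak. Some met a peak only at an edge, such as Mir6945, which shared the base chr13:55507625 alone on both days. Of the 76 touched on either day, 16 (21.1%) were touched at day 10 only, 4 (5.26%) at day 0 only and 56 on both days. These shares were near the 23.0% and 7.76% of all regions held by 1 list. The cluster of Mir199a-2 and Mir214 on chromosome 1 was split between these classes, and its mature forms are given with the seed (bases 2 to 8) in capitals. No seed is shared between the 4.
mmu-miR-199a-5p: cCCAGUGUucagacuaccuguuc
mmu-miR-199a-3p: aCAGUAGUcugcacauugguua
mmu-miR-214-5p: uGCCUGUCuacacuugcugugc
mmu-miR-214-3p: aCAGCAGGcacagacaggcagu
The hairpin of Mir199a-2 lay under a peak at day 10 (chr1:162217839-162217950, fold 8.21), on day 5 and in both siCtrl lists, and under none at day 0. The hairpin of Mir214 lay under peaks at day 10 (chr1:162223351-162223500) and at day 0 (chr1:162223376-162223475). The authors placed these peaks in an intron of Dnm3 on the minus strand. The hairpins are on the plus strand, inside the RefSeq noncoding RNA Dnm3os (chr1:162217623-162225550), and no label or header says whether strand was used, so the 2 RNAs cannot be told apart as the source. Mir22 and Mir27a, the second an inhibitor of fat cell formation in this line, lay under peaks on both days.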

How the data were processed

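The data are peak lists from m6A-seq, 1 for day 10 and 1 for day 0, each from an IP and its input. Per the submitters' processing notes, TopHat2 2.0.9, bedtools and the build mm10 were used; no label or header names the peak caller or its thresholds, and no read counts were used, so depth is unknown. Per the file headers, the authors gave every peak an enrichment, taken here as a fold (ratio), with no formula stated. Peaks carry a position, an Ensembl gene and a transcript part, as deposited. Lines with the chromosome "encoded" were to be dropped, and both lists had 0.

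Members, gene lists and rules were chosen with earlier results of these data known. Peaks of a gene were joined into covered bases, and peaks of both lists that shared 1 base were merged into regions, in Python 3.11.15 with pandas 2.3.3 (checked on simulated lists). A gene was called at 2-fold or more with 200 covered bases in at least 1 list. Shares have exact Clopper-Pearson 95% intervals (scipy 1.17.1). Named genes were, by rule, the 10 with most covered bases in each single-day class, the 10 highest and 10 lowest ratios (500 bases in at least 1 list), up to 4 members a list by largest difference, and a set of 16 regulators and markers; other list members named were chosen after their values were seen. Of 9802 gene IDs 9715 had a symbol. A planned search for GGACT in coding regions was not run, since no genome was used here; transcript starts, hairpins, positions within genes and the lookup of coding and intronic regions were added after seeing the data. Alternatives were peaks at or above the median fold, folds of 2 or more, equal list length, day 5 for day 10, day 2 for day 0, other thresholds and overlaps, and joining of adjoining peaks. Gm20388, an ID that overlaps other genes, had most peaks (420 at day 10, 380 at day 0). Some genes are not reported here.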

Additional observations from a re-analysis of the deposited data

How the results depend on the processing

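No paired analysis was possible because each day has 1 list and the labels give it no replicate number. In every alternative run, more genes were held by the day 10 list only than by the day 0 list only, and 2-fold genes were more numerous at day 10. Regions followed except at equal list length, where 5805 were of day 10 only and 6644 of day 0 only. Genes of day 0 only numbered 728 at or above the median fold and 778 at equal length, and with 200 covered bases the counts were 318 at day 10 and 61 at day 0. Genes 2-fold higher and lower numbered 582 and 395 at equal length, 1944 and 415 at 1.5-fold and 286 and 41 at 3-fold; the lower count was 336 with day 5 for day 10, 342 with day 2 for day 0 and 310 by number of peaks. Differences in the share of peaks (day 10 minus day 0, in points) for 5′ UTR, coding sequence, 3′ UTR and intron were -2.92, 4.45, 1.19 and -2.73 at or above the median fold and -0.0854, 1.26, -1.12 and -0.0614 at equal length. The 5′ UTR difference was -2.07 with day 5 for day 10 and -0.837 with day 2 for day 0, and the 3′ UTR difference turned to -0.101 with adjoining peaks joined. Over the gene lists, lower calls numbered 18 at or above the median fold; higher and lower calls numbered 32 and 29 at equal length and 26 and 18 with day 2 for day 0. The net count of higher minus lower members changed sign for surface genes (-1 at the median fold, at equal length and with day 5 for day 10), Wnt, BMP and TGF-beta genes (2 at the median fold), immediate early genes (-2 at the median fold and at equal length, -1 with day 2 for day 0), m6A genes (-2 at equal length and with day 2 for day 0), lipid droplet genes (-2), cell cycle genes (-1) and ribosomal protein genes (-1), the last 3 with day 2 for day 0. Of the 1254 genes called higher, 806 were still called higher at equal length, 433 at or above the median fold, 698 with day 5 for day 10 and 525 with day 2 for day 0. Of the 224 called lower, 125 were still called lower at or above the median fold, 126 with day 5 for day 10 and 88 with day 2 for day 0. The equal-length cut removes only day 10 peaks of low fold, so it cannot end a lower call. Other causes were not tested. Depth is unknown, and a gene without a peak may lack reads and not m6A.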
